A study of Mus musculus with 11 samples.

Results

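Acetaminophen (APAP) is turned into its reactive metabolite by a few hepatocyte cytochromes P450 (P450s), and 6 genes of that step were followed here in mouse liver: the P450s Cyp2e1, Cyp1a2, Cyp3a11, Cyp3a13 and Cyp3a25, and Por, the reductase that feeds electrons to all microsomal P450s. They were taken by name from the 31053 genes in the matrices, and all 6 passed the filter on low counts in every comparison. The counts came from 11 Visium sections of snap-frozen liver, a slide-based assay that counts RNA molecules by unique molecular identifiers (UMIs) in spots of known position. Uninjured liver gave 3 sections (0 h, numbered 2, 3 and 4). APAP-injured liver gave sections A and B at each of 24 h and 36 h, and sections A to D at 48 h. The labels give neither strain, sex nor age, while the study's methods describe adult C57BL/6JCrl mice, male unless stated otherwise, fasted and then injected intraperitoneally with APAP, besides reporter strains for other assays. Whether the uninjured mice were fasted was not given in the sources used here. The methods count 1 mouse per time point in the spatial data, so n counts sections, every p covers the spread between sections, and mouse and time cannot be told apart.

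P450s are haem enzymes of the endoplasmic reticulum that oxidise drugs, steroids and fatty acids, and each catalytic cycle needs electrons that Por passes on from NADPH. CYP2E1 is the best known route from APAP to NAPQI, the quinone imine that uses up glutathione and binds protein, and CYP1A2 and CYP3A enzymes add to it. In healthy liver CYP2E1 and CYP1A2 are made mostly by hepatocytes around the central vein, the zone in which APAP necrosis arises.

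A spot covers several cells of different types, so each value below is a level of the tissue under the spots, and fewer hepatocytes and less RNA per hepatocyte cannot be told apart. The sections held 31292663 to 67045372 UMIs in spots that passed the filters, with medians of 15168.5 to 29950 UMIs per spot. The lowest sum for any of the 6 genes in any section was 846 UMIs, for Cyp1a2 in 24 h section B. As a check of the tissue, 6 hepatocyte genes (Alb, Ttr, Trf, Hp, Hnf4a and Apoa1) summed to 116667 to 121832 UMIs per 1000000 (CPM) at 0 h and to 84853 to 113340 CPM after APAP. Without Hp, which was higher after APAP, they summed to 114265 to 119440 CPM at 0 h and 77232 to 102894 CPM after APAP. The sections of a time point did not always resemble each other. The 36 h sections differed 4.14-fold in Cyp1a2 and 2.45-fold in Por, the 24 h sections differed 4.19-fold in Cyp1a2, and 48 h section D held 1361 CPM of Cyp3a11 where the other 48 h sections held at most 445 CPM. Each comparison but that beside hepatocyte-low spots was refitted without each section in turn. Median mitochondrial shares of UMIs per spot were 4.31% to 6.38% at 0 h, 4.56% in 36 h section B and 1.69% to 2.67% in the other 7 injured sections. The part of this share in the levels of the 6 members was not tested.

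In the GENCODE annotation of GRCm38, the build of the counts, 4 of the 6 genes lie on chromosome 5. Cyp3a11 (ENSMUSG00000056035) spans bases 145854426 to 145879964 and Cyp3a25 (ENSMUSG00000029630) bases 145977194 to 146009618, both on the minus strand with 97.23 kb between them, while Cyp3a13 (ENSMUSG00000029727, bases 137892932 to 137921619, minus strand) and Por (ENSMUSG00000005514, bases 135670033 to 135735326, plus strand) stand apart from that cluster. Cyp2e1 (ENSMUSG00000025479) lies on chromosome 7 from base 140763739 to 140774987 on the plus strand, and Cyp1a2 (ENSMUSG00000032310) on chromosome 9 from base 57676937 to 57683703 on the minus strand. Cyp3a genes are near copies of each other, and reads that they share could have been split or dropped by the authors' counting, so the 3 Cyp3a values are less certain than the others.

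The 4 genes with the clearest central to portal difference in uninjured liver are shown by the 150 bases before their RefSeq start (GRCm38.p6), written 5′ to 3′ on the strand of the gene with matches to the motifs searched in capitals. The windows are chr7:140763669-140763818 (plus), chr9:57683656-57683805 (minus), chr5:145879855-145880004 (minus) and chr5:135688995-135689144 (plus).
Cyp2e1: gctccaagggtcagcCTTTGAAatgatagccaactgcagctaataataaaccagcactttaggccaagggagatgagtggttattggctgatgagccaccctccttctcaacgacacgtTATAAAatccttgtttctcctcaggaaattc
Cyp1a2: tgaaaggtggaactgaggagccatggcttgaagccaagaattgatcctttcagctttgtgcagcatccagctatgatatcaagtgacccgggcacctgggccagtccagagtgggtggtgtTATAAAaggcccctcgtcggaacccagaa
Cyp3a11: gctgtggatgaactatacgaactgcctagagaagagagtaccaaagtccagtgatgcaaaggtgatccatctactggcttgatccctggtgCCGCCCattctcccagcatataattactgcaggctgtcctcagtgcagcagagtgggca
Por: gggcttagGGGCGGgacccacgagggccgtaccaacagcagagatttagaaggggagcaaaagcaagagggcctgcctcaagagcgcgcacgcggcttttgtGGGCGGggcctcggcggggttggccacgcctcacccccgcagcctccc
A TATA box (TATAAA) began 31 bases before the start of Cyp2e1 and 29 before that of Cyp1a2, and 7.56% of 32544 RefSeq windows of this length hold one on either strand. A GC box (GGGCGG) was found in Por, 142 and 48 bases before the start, and on the other strand in Cyp3a11, 59 bases before it, against 28.8% of all windows. The letters CTTTGAA, a core that TCF factors bind, began 135 bases before the start of Cyp2e1 and occur in 2.41% of windows. The related CTTTGAT (1.79% of windows), the nuclear receptor core AGGTCA (8.61%) and the HNF1 consensus (0.0522%) were in none of the 6 members' 150-base windows. The Por window was 68.7% G or C with 12 CpG pairs, the other printed windows 45.3% to 52.7% with 2 or 3. No motif overlapped another, and a match describes letters and not a bound site. GENCODE begins Cyp2e1, Cyp1a2 and Cyp3a11 80, 48 and 110 bases upstream of the RefSeq start, and Por 19112 bases upstream.

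The first question was whether the levels of these genes changed over the injury. At 24 h, Cyp2e1, Cyp1a2, Cyp3a11 and Cyp3a25 had fallen against 0 h, 4 of 6 members, where 41.7% of all 14821 genes tested were called changed in either direction. At 36 h, Cyp2e1, Cyp1a2 and Cyp3a11 were lower and Cyp3a13 and Por were higher, 5 of 6 members against 29.2% of all genes. At 48 h, Cyp2e1 and Cyp3a11 were lower and Por was higher, 3 of 6 members against 44.2% of all genes. Values are TMM-scaled CPM, differences are log2 fold changes with their SE from edgeR's quasi-likelihood test, and a gene was called at a Benjamini-Hochberg adjusted p under 0.05 over all genes tested. The 3 comparisons share the 0 h sections, so their values stand side by side and are not independent of each other. By total-count scaling the median of all genes moved to 0.37, 0.49 and 0.54 at 24 h, 36 h and 48 h, from 0.05, 0.05 and 0.01 with TMM.

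Cyp2e1 stood at 2787, 2487 and 2011 CPM in the uninjured sections. The 24 h sections held 433 and 256 CPM, the 36 h sections 649 and 605 CPM, and the 48 h sections 550, 574, 472 and 529 CPM. All 8 injured sections lay below all 3 uninjured ones. The log2 change was -2.82 at 24 h (SE 0.23, adjusted p = 3.2e-05, edgeR), -1.95 at 36 h (SE 0.22, adjusted p = 0.000501) and -2.19 at 48 h (SE 0.17, adjusted p = 2.16e-05). These falls kept their call in every fit with a section left out. Its mean order was 0 h, 36 h, 48 h, 24 h, where 36 h and 48 h were neighbours that did not differ beyond their spread (log2 difference -0.24, SE 0.19, adjusted p = 0.52, edgeR).

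Cyp1a2, which also clears caffeine, stood at 462, 427 and 397 CPM in uninjured liver. The 24 h sections held 113 and 27 CPM, the 36 h sections 160 and 38.7 CPM, and the 48 h sections 169, 255, 416 and 330 CPM. The 24 h and 36 h sections lay below all uninjured ones, while 48 h section C reached the uninjured range. The log2 change was -2.61 at 24 h (SE 0.72, adjusted p = 0.0161, edgeR), -2.11 at 36 h (SE 0.70, adjusted p = 0.0479) and -0.55 at 48 h (SE 0.54, adjusted p = 0.431). The 24 h call was lost without 24 h section B (log2 change -1.92, adjusted p = 0.0908, edgeR) and the difference was -3.99 without section A. The 36 h call was lost without any 0 h section, any 48 h section or 36 h section B (-1.42, adjusted p = 0.235 without the latter, edgeR) and was -3.47 without 36 h section A.

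Cyp3a11, the main inducible drug P450 of mouse liver, stood at 2969, 2278 and 1168 CPM at 0 h. The 24 h sections held 164 and 87.1 CPM, the 36 h sections 395 and 107 CPM, and the 48 h sections 292, 445, 308 and 1361 CPM. The other 7 injured sections lay below all uninjured ones, and 48 h section D lay inside their range. The log2 change was -4.09 at 24 h (SE 0.91, adjusted p = 0.00596, edgeR), -3.09 at 36 h (SE 0.87, adjusted p = 0.0255) and -1.83 at 48 h (SE 0.64, adjusted p = 0.0404). Without 48 h section D the 48 h difference was -2.62 (adjusted p = 0.0038, edgeR), while the call was lost without 0 h section 2 or 3, either 24 h section or any of 48 h sections A, B and C (adjusted p up to 0.123). The 24 h call was lost without 24 h section B (-3.71, adjusted p = 0.0594, edgeR), and the 36 h call without 0 h section 2 or 3 or 36 h section B (-2.44, adjusted p = 0.173 without the latter). The 36 h difference was -4.32 without 36 h section A.

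Cyp3a25 stood at 271, 226 and 139 CPM in the 0 h sections and at 40 and 50.9 CPM in those of 24 h, a log2 change of -2.22 (SE 0.38, adjusted p = 0.00124, edgeR) that kept its call with any section left out. The 36 h sections held 301 and 144 CPM and the 48 h sections 245, 175, 146 and 197 CPM. Every section of these later times lay inside or above the uninjured range, with log2 differences of 0.07 (adjusted p = 0.895, edgeR) and -0.15 (adjusted p = 0.692). From 24 h to 36 h it rose by 2.29 (SE 0.40, adjusted p = 0.00814, edgeR), so that its low level was seen at 24 h alone of the 3 injured times. This rise was 2.13 without 24 h section A (adjusted p = 0.0645, edgeR) and 1.67 without 36 h section A (adjusted p = 0.0157).

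Cyp3a13, a CYP3A gene outside the main cluster, stood at 86.4, 78.4 and 82.2 CPM in the 0 h sections and at 77.3 and 164 CPM in those of 24 h. The 36 h sections held 154 and 214 CPM and the 48 h sections 145, 122, 149 and 73.2 CPM. Both 36 h sections and 3 of 4 at 48 h lay above the uninjured sections. The log2 change was 0.55 at 24 h (SE 0.33, adjusted p = 0.214, edgeR), 1.16 at 36 h (SE 0.33, adjusted p = 0.0265) and 0.57 at 48 h (SE 0.29, adjusted p = 0.129). The 36 h call was lost without any 0 h section or without 36 h section B (0.90, adjusted p = 0.175, edgeR). It was called higher at 24 h without 24 h section A (0.99, adjusted p = 0.0454, edgeR) and at 48 h without 48 h section D (0.75, adjusted p = 0.032), and was at -0.09 at 24 h without section B.

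Por stood at 92.3, 95 and 68.8 CPM in the 0 h sections and at 85.1 and 125 CPM in those of 24 h. The 36 h sections held 212 and 519 CPM and the 48 h sections 230, 148, 250 and 157 CPM. All sections at 36 h and 48 h lay above all at 0 h and 24 h, and 36 h section B stood far above the rest. The log2 change was 0.30 at 24 h (SE 0.36, adjusted p = 0.539, edgeR), 2.10 at 36 h (SE 0.36, adjusted p = 0.00294) and 1.20 at 48 h (SE 0.31, adjusted p = 0.0111). Without 36 h section B the 36 h rise was 1.31 (adjusted p = 0.0239, edgeR), and both later rises kept their call with any section left out. In these 6 later sections Cyp2e1 lay below all uninjured sections, as did Cyp3a11 in all but 48 h section D. The difference of 48 h from 36 h did not pass the test (-0.90, SE 0.33, adjusted p = 0.168, edgeR).

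Scaled by 5 hepatocyte genes (Alb, Ttr, Trf, Apoa1 and Hnf4a), Cyp2e1 kept its calls at each time, Por at 36 h and 48 h, Cyp3a13 at 36 h, and Cyp3a11 and Cyp3a25 at 24 h. The calls of Cyp1a2 at 24 h and 36 h (adjusted p = 0.07036 and 0.157, edgeR) and of Cyp3a11 at 36 h and 48 h (adjusted p = 0.07028 and 0.149) were lost on that scale, and Cyp3a13 was called higher at 24 h and 48 h (0.98 and 1.01). The median of all genes on that scale was 0.51, 0.39 and 0.45 at 24 h, 36 h and 48 h. By total counts in place of TMM, the calls of Cyp1a2 at 36 h (-1.65, adjusted p = 0.0761, edgeR) and of Cyp3a11 at 48 h (-1.31, adjusted p = 0.0975) were lost, and Cyp3a13 was called higher at 24 h (0.87, adjusted p = 0.046) and 48 h (1.10, adjusted p = 0.0064). With no filter on low counts, the calls of Cyp1a2 at 36 h (adjusted p = 0.109, edgeR) and of Cyp3a11 at 36 h and 48 h (adjusted p = 0.0685 and 0.101) were lost.

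Between the injured times, 3 of 6 members changed from 24 h to 36 h, all upward (Cyp2e1 by 0.86, Cyp3a25 by 2.29 and Por by 1.80), against 15.6% of all genes. The Cyp2e1 call of that step was lost without 24 h section B or either 36 h section (adjusted p 0.0522 to 0.142, edgeR). The Por call was lost without either 24 h section or 36 h section B (adjusted p 0.0537 to 0.124, edgeR). Fitted on the 24 h and 36 h sections alone, none of the 3 was called. From 36 h to 48 h edgeR called 0 members, against 3.05% of all genes, with 2 members at an unadjusted p under 0.05 (Cyp1a2 and Por) and 0 called by DESeq2.

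**Figure D1:**
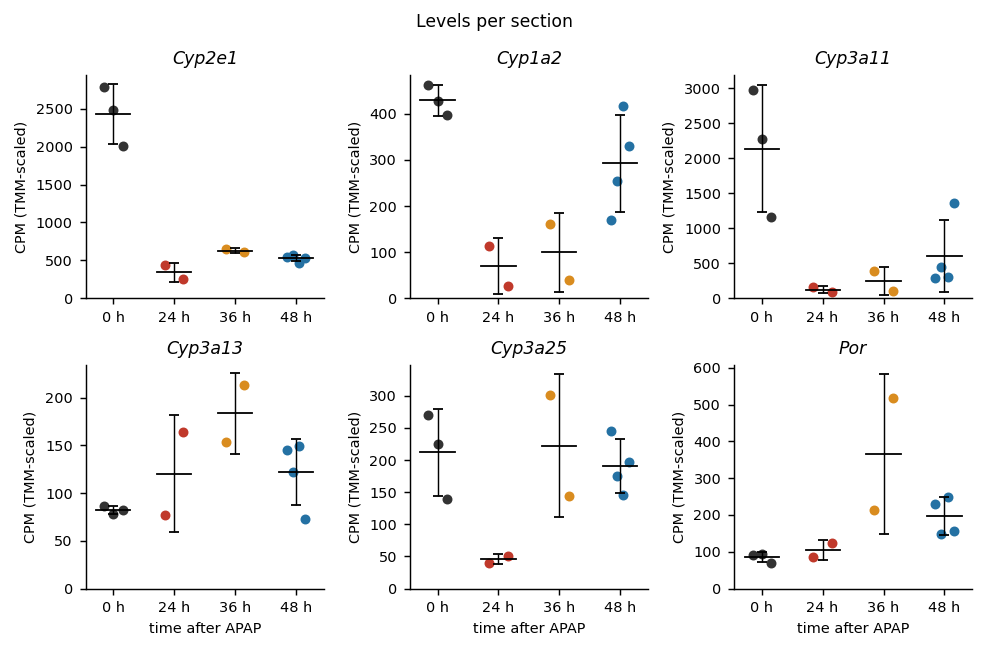
Each point is a section, the horizontal line the mean and the error bar the SD of the sections of a time point, with TMM-scaled CPM on a linear axis from 0 and time after APAP below. All 8 injured sections lie below the uninjured ones in Cyp2e1, and Cyp3a25 is low at 24 h. Por is highest in 36 h section B at 519 CPM, while 36 h section A at 212 CPM lies within the range of the 48 h sections (148 to 250 CPM).

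The 36 h time lies 12 h out of step with 24 h and 48 h, and many liver genes cycle daily. Among all genes tested, 23.1% were higher and 18.6% lower at 24 h, 16.8% and 12.4% at 36 h, and 23.3% and 20.9% at 48 h, and the counts of each list stand beside these shares. Of 11 clock genes, 5 were higher and 2 lower at 36 h, while at 24 h none was higher and 3 were lower, and at 48 h 1 was higher and 3 were lower. Dbp, a clock output factor, stood at 28.8 and 63.4 CPM at 36 h against 3.1 to 7.8 CPM at 0 h (log2 change 3.11, SE 0.39, adjusted p = 0.0008, edgeR), and Arntl, the core activator, was lower by -2.26 (SE 0.16, adjusted p = 4.4e-05). Dbp did not pass the test at 24 h (-0.58, adjusted p = 0.293, edgeR) or 48 h (0.75, adjusted p = 0.0958), and Nr1d1 at no time. Clock, the partner of Arntl, was lower by -0.94 at 36 h and by -0.76 and -0.48 at 24 h and 48 h. Phase of the day and time after APAP cannot be told apart at 36 h, for Por and Cyp3a13 as for the others.

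Because the P450s share 1 reductase, the UMIs of each were divided by those of Por in the same section. This ratio needs no scaling, but it counts the Por of all cells under the spots and not of hepatocytes alone. A Por UMI was matched by 28.5 ± 2.1 UMIs of Cyp2e1 at 0 h (mean ± SD, n = 3), 5.09 and 2.06 in 24 h sections A and B, 3.06 and 1.17 in 36 h sections A and B, and 2.88 ± 0.91 at 48 h (n = 4). The 5 P450s together gave 61.4 ± 8.6 at 0 h, 9.73 and 4.69 at 24 h, 7.82 and 2.14 at 36 h, and 6.09, 10.6, 5.96 and 15.9 in 48 h sections A to D. For Cyp2e1, Cyp1a2, Cyp3a11, Cyp3a25 and the sum, all injured sections lay below all uninjured ones at each time. Por itself was higher at 36 h and 48 h (log2 change 2.10 and 1.20), so a gene of unchanged level also falls in this ratio there. In CPM, Cyp3a25 at 36 h and 48 h (0.07 and -0.15) and Cyp1a2 at 48 h (-0.55) were not called. The share of all genes that lie below 0 h per Por UMI was not computed. Cyp3a13 was the exception, with 0.985 ± 0.190 in uninjured sections, 1.11 ± 0.29 in those of 24 h and 0.630 ± 0.149 in those of 48 h, and only its 36 h sections (0.412 and 0.724) lay wholly below 0 h. At 48 h against 0 h the two-sided exact permutation p was 0.0571 for Cyp2e1, Cyp1a2, Cyp3a11 and Cyp3a25, the smallest that 4 against 3 sections allow, and 0.114 for Cyp3a13. With these numbers of sections the test cannot reach 0.05 at any time, and against 2 sections it was not run.

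**Figure D2:**
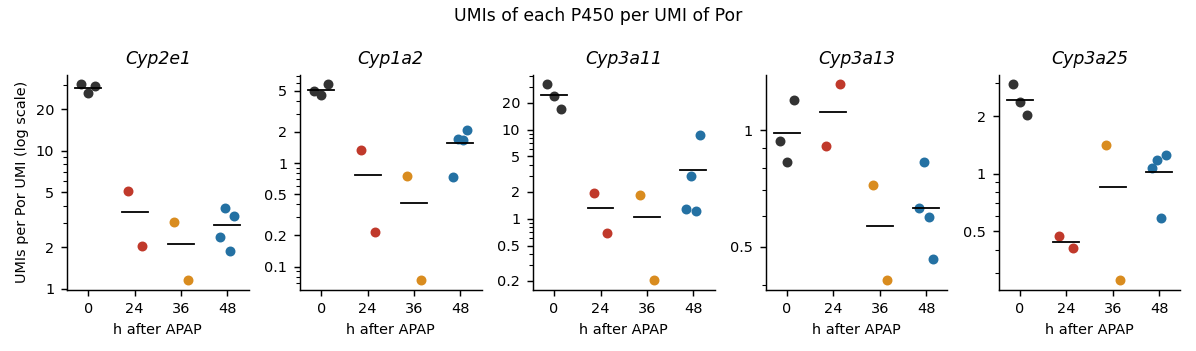
Points are sections and lines are means of UMIs of each P450 per UMI of Por, on a log axis that differs between panels, by time after APAP. Cyp2e1 falls from 26.2 to 30.2 at 0 h to 1.17 to 5.09 after APAP, while the Cyp3a13 sections overlap at 24 h and 48 h.

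The mix of the 5 P450s shifted as their summed level changed. It was 5289 ± 1401 CPM in uninjured sections (SD, n = 3), 706 ± 172 CPM in the 24 h sections (n = 2), 1384 ± 389 CPM in the 36 h sections (n = 2) and 1738 ± 506 CPM in the 48 h sections (n = 4). Cyp2e1 held 46.9 ± 5.5% of their UMIs at 0 h and 48.1 ± 6.0% at 24 h. Cyp3a11 held 39.1 ± 7.5% at 0 h and 17.3 ± 3.5% at 24 h. The share of Cyp3a13 went from 1.64 ± 0.46% at 0 h to 9.34% and 27.96% in 24 h sections A and B, 9.26% and 19.3% in 36 h sections A and B, and 7.76 ± 3.41% at 48 h. The 0 h sections held 1.31% to 2.16% of Cyp3a13 and every injured section held more, from 2.94% in 48 h section D. Shares within the sum describe unequal change and not that a gene rose.

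The next question was where in the lobule these genes lay. Spots were ordered within each section by an index, the mean log score of 21 central genes minus that of 12 portal genes, with none of the 6 members among them, and were split into 5 bands of equal size. In uninjured liver 4 members were higher in the central (most central) than in the portal (most portal) band, against 16.8% of the 13298 genes tested in either direction and 8.16% called higher. Cyp2e1 and Cyp3a11 were in the study's own central list, which was drawn on these data, so their calls here were partly set in advance. Central levels of Cyp2e1 were 4843, 4631 and 3771 CPM and portal levels 1103, 978 and 746 CPM, a log2 difference of 2.24 (SE 0.17, adjusted p = 5.01e-05, edgeR). For Cyp1a2 the difference was 2.01 (SE 0.13, adjusted p = 1.09e-05), for Cyp3a11 1.12 (SE 0.19, adjusted p = 0.00563) and for Por 0.97 (SE 0.08, adjusted p = 1.81e-10). Cyp3a13 and Cyp3a25 did not pass, at -0.20 (adjusted p = 0.152, edgeR) and 0.02 (adjusted p = 0.93). Cyp3a13 was higher portally in all 3 sections (-0.32, -0.13 and -0.15) and was called so without 24 h section A or B (adjusted p = 0.0133 and 0.0107, edgeR). Scaled by the hepatocyte genes, Cyp3a13 and Cyp3a25 were both called higher centrally (0.33 and 0.54), but on that scale the median of all genes was 0.53. All uninjured sections were higher centrally in the first 4 genes, and their Cyp3a25 differences ran from -0.04 to 0.05.

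**Figure D3:**
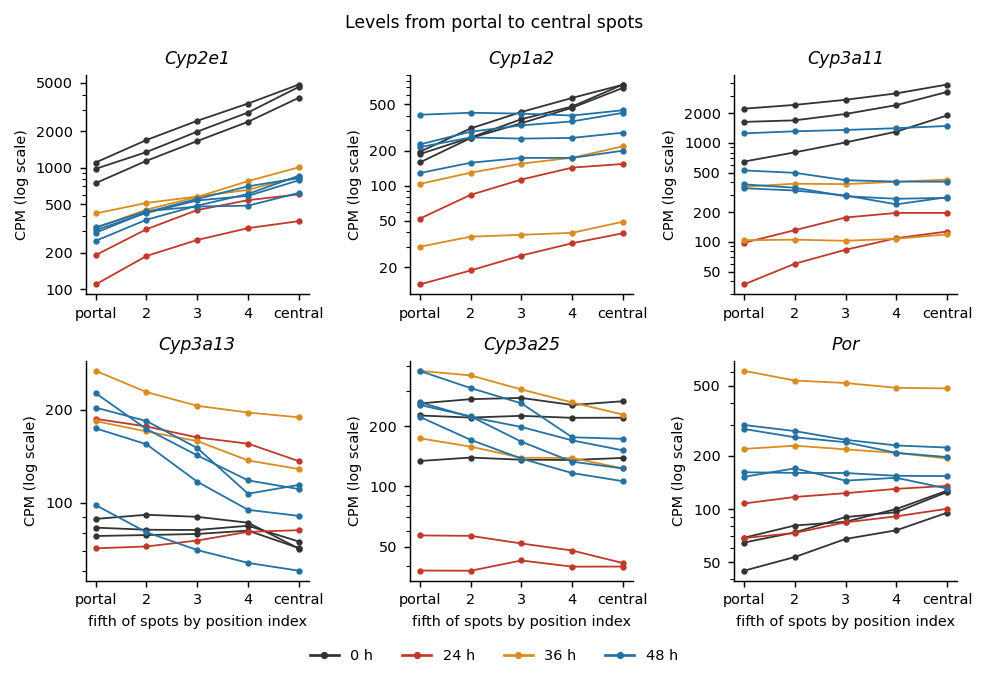
Lines are sections, coloured by time, with CPM on a log axis over the 5 bands of spots from most portal to most central. Cyp2e1 rises toward central spots in all 11 sections, Por rises at 0 h and 24 h, and Cyp3a25 falls toward central spots in the 36 h and 48 h sections.

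At 24 h the same 4 genes were called higher centrally, against 22.6% of all genes called in either direction and 10.6% called higher. Cyp2e1 stood at 603 and 363 CPM centrally and 190 and 109 CPM portally (1.69, SE 0.22, adjusted p = 0.000973, edgeR). Cyp1a2 differed by 1.53 (SE 0.22), Cyp3a11 by 1.31 (SE 0.28) and Por by 0.44 (SE 0.09). The Cyp1a2 and Por calls were lost without 24 h section A (adjusted p = 0.0924 and 0.095, edgeR), and the Cyp3a11 call without section B (adjusted p = 0.13). Cyp3a13 and Cyp3a25 went opposite ways in the 24 h sections, at 0.19 and 0.07 in A and -0.45 and -0.46 in B.

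At 36 h, 5 members differed between the zones against 15% of all genes, Cyp2e1 and Cyp1a2 higher centrally and Cyp3a13, Cyp3a25 and, except by the hepatocyte genes, Por higher portally. Cyp2e1 differed by 1.33 (SE 0.21, adjusted p = 0.00427, edgeR) and Cyp1a2 by 0.94 (SE 0.20, adjusted p = 0.0138). Cyp3a25 differed by -0.62 (SE 0.09, adjusted p = 7.24e-06, edgeR), Cyp3a13 by -0.51 (SE 0.10, adjusted p = 0.00176) and Por by -0.26 (SE 0.08, adjusted p = 0.0336). Cyp3a11 stood at 426 and 119 CPM centrally and 361 and 104 CPM portally (0.22, adjusted p = 0.664, edgeR). Without 36 h section A only Cyp3a25 was called, and Cyp2e1 was at 0.98 (adjusted p = 0.0825, edgeR). Without 36 h section B, Cyp1a2 (1.08), Cyp3a13 (-0.50) and Por (-0.17) were not called. Scaled by the 5 hepatocyte genes, the Por difference turned to 0.21, Cyp3a11 was called higher centrally (0.69), and Cyp3a13 (-0.04, adjusted p = 0.731, edgeR) and Cyp3a25 (-0.15, adjusted p = 0.124) were not called. By total counts the Por difference was -0.06 (adjusted p = 0.623, edgeR). The median of all genes between the zones at 36 h was 0.0087 with TMM, 0.21 by total counts and 0.48 by the hepatocyte genes.

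At 48 h, 5 members differed, against 49.5% of all genes, 2 of them higher centrally and 3 portally. Cyp2e1 stood at 788, 820, 620 and 857 CPM centrally and 306, 291, 322 and 250 CPM portally, a difference of 1.39 (SE 0.15, adjusted p = 9.58e-05, edgeR). Cyp1a2 was higher centrally by 0.52 (SE 0.11, adjusted p = 0.00517). Cyp3a25 stood at 173, 123, 106 and 151 CPM centrally and 378, 255, 223 and 263 CPM portally, so all 4 sections were higher portally (-1.01, SE 0.06, adjusted p = 7.61e-14, edgeR). Cyp3a13 differed by -0.88 (SE 0.07, adjusted p = 2.59e-09) and was higher portally in all 4 sections. Por differed by -0.32 (SE 0.06, adjusted p = 5.97e-05, edgeR). It differed by 0.0034 when scaled by total counts and by 0.32 when scaled by the hepatocyte genes, so its direction at 36 h and 48 h depends on the scaling. The median of all genes at 48 h moved as well, from 0.0002 with TMM to 0.32 by total counts and 0.64 by the hepatocyte genes. Por lay below that median on each of these scales. Cyp3a11 did not pass the test (-0.22, adjusted p = 0.333, edgeR), with section D higher centrally and the other 3 higher portally.

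Whether the central to portal difference itself changed from uninjured liver was tested as a difference of differences. At 48 h this shift was negative in all 6 members, against 33.3% of all genes called and 19.6% called lower. Central here means the band of highest index. At 48 h its summed central index genes had central to portal ratios of 0.796 to 0.984, against 1.91 to 2.05 at 0 h. Their mean log score still rose toward that band (0.226 to 0.430 at 48 h). The band at 48 h need not lie at the central vein. The shift was -0.84 for Cyp2e1 (SE 0.22, adjusted p = 0.0199, edgeR), -1.49 for Cyp1a2 (SE 0.17, adjusted p = 0.00021) and -1.33 for Cyp3a11 (SE 0.25, adjusted p = 0.00509). It was -0.68 for Cyp3a13 (SE 0.11, adjusted p = 9.4e-05, edgeR), -1.03 for Cyp3a25 (SE 0.09, adjusted p = 9.21e-10) and -1.29 for Por (SE 0.10, adjusted p = 7e-11). The Cyp2e1 shift lost its call without any 0 h section or 48 h section A (adjusted p 0.0511 to 0.0756, edgeR), by total counts (-0.59, adjusted p = 0.0648) and with spots ordered on all UMIs (-0.58, adjusted p = 0.119), and the other 5 kept theirs with any section left out. At 36 h, 3 members were called, against 13.6% of all genes: Cyp1a2 by -1.06, Cyp3a25 by -0.64 and Por by -1.23. Cyp2e1 did not pass at 36 h (-0.91, SE 0.26, adjusted p = 0.0648, edgeR), but did without 36 h section A (-1.26, adjusted p = 0.0457) or 48 h section C or D. The Cyp1a2 shift at 36 h was lost without 0 h section 3 or 4 or either 36 h section (adjusted p 0.0578 to 0.162, edgeR). At 24 h only Por was called, against 15.8% of all genes, by -0.53 (SE 0.12, adjusted p = 0.0029, edgeR), and not without 24 h section B (adjusted p = 0.0983), while Cyp3a25 was called without section A (-0.47, adjusted p = 0.0402) and Cyp3a13 without section B (0.39, adjusted p = 0.0292). Scaled by total counts the median of all genes in the 48 h shift was 0.24, against -0.01 with TMM.

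**Figure D4:**
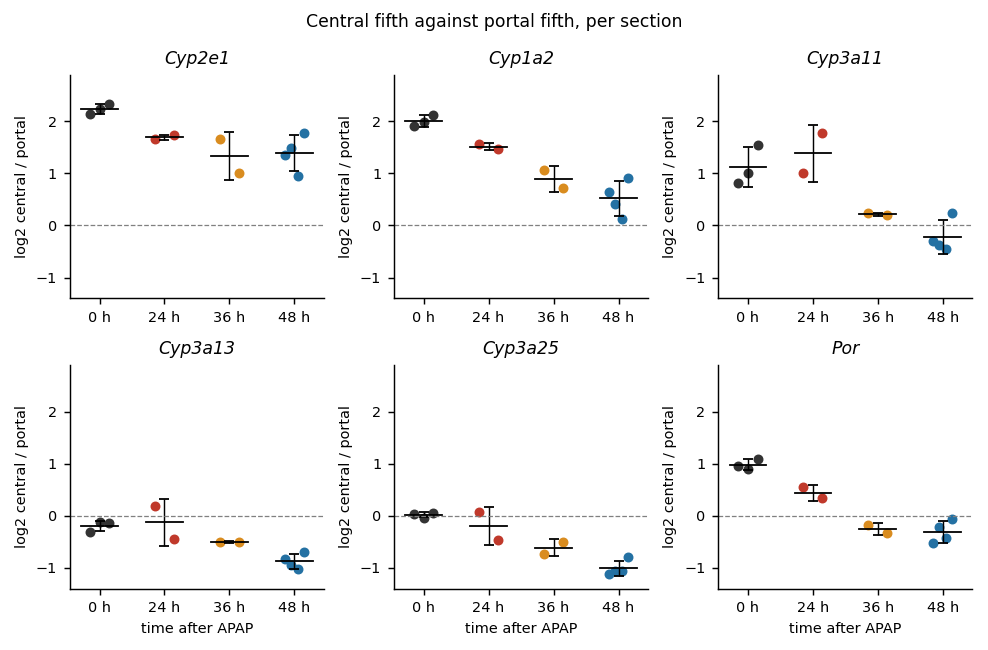
Points are sections, lines means and error bars SDs of the log2 ratio of the central to the portal band, with a dashed line where both are equal, by time after APAP. Cyp2e1 stays above the line in all 11 sections, and Por lies above it at 0 h and 24 h and, on the TMM scale though not by the hepatocyte genes nor, at 48 h, by total counts, below it in the 2 sections at 36 h and the 4 at 48 h.

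Other measures moved with these zonal values. The summed level of the 21 central genes of the index, which its most abundant genes carry, went from a central to portal ratio of 1.963 ± 0.074 at 0 h (n = 3) to 1.11 ± 0.17 at 24 h, 1.05 ± 0.09 at 36 h and 0.889 ± 0.078 at 48 h, and that of the 12 portal genes was 0.450 ± 0.019 at 0 h and 0.442 ± 0.034 at 48 h. The mean log score of the central genes, which is part of the index, rose from the portal to the central band by 0.892 to 0.928 at 0 h and by 0.226 to 0.475 in the 8 injured sections. The summed ratio of 10 textbook central genes was 4.57 to 5.10 at 0 h and 1.35 to 2.03 at 48 h. Ordered by portal genes alone, Cyp1a2 at 48 h was at -0.20 and no longer called, Cyp3a11 was called higher portally (-1.04, adjusted p = 0.0012, edgeR), and Cyp2e1 stayed higher centrally. Ordered by textbook zonation genes, Cyp3a11 at 24 h (adjusted p = 0.0569, edgeR) and Cyp1a2 at 36 h and 48 h (adjusted p = 0.0942 and 0.5) lost their calls. The hepatocyte list was lower centrally at every time, with a ratio of 0.698 ± 0.004 at 0 h and 0.640 ± 0.053 at 48 h. Markers of other cells were higher centrally at 48 h, with ratios of 2.40 ± 0.28 for 4 myofibroblast genes, 2.12 ± 0.17 for 4 mononuclear phagocyte genes and 2.07 ± 0.42 for 4 neutrophil genes, against 0.966 ± 0.036, 0.810 ± 0.090 and 1.80 ± 0.30 at 0 h. Their part in the shifts of the 6 members was not tested.

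Dividing by Por within the same band again removes the scaling. Cyp2e1 per Por UMI was 38.3 ± 1.6 centrally and 16.0 ± 1.6 portally at 0 h, and 4.66 ± 1.57 centrally and 1.40 ± 0.41 portally at 48 h. The central to portal ratio of this quotient was 2.40 ± 0.15 at 0 h and 3.30 ± 0.51 at 48 h, higher in all 4 sections (two-sided exact permutation p = 0.0571, the smallest possible). Cyp1a2 per Por gave 2.04 ± 0.10 and 1.81 ± 0.36, which overlapped. For Cyp3a25 per Por the ratio was 0.514 ± 0.025 at 0 h and 0.616 ± 0.044 at 48 h. Cyp2e1 thus remained more central than Por at both times on a scale with no library factor.

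**Figure D5:**
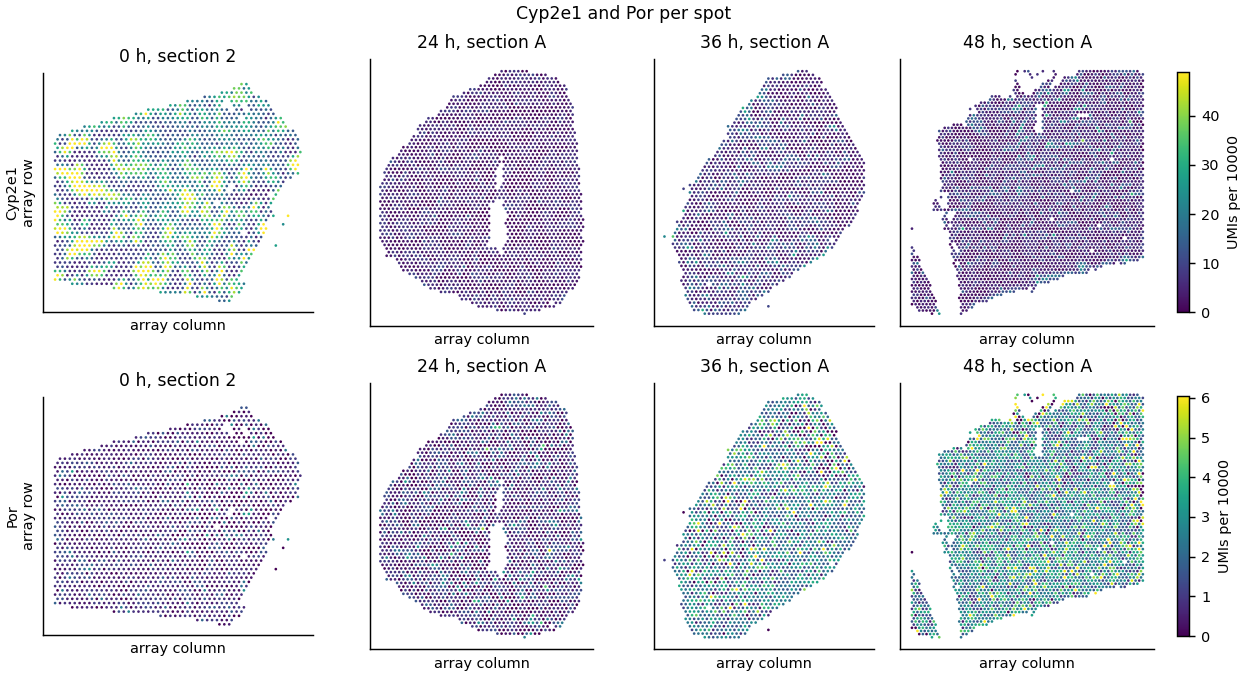
Each dot is a spot at its array position in 1 section per time, coloured by UMIs of Cyp2e1 (top) or Por (bottom) per 10000 UMIs of the spot, with the highest values sharing the top colour. Cyp2e1 forms bright islands in the 0 h section and is low across the injured sections, while Por is brighter in the 36 h and 48 h sections.

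To ask whether the falls were seen away from the central zone, the portal band was compared over time. At 24 h, 4 members were lower there, against 27.9% of the 12718 genes tested called in either direction and 12.9% called lower. Cyp2e1 was lower by -2.65 (SE 0.26, adjusted p = 5.06e-05, edgeR), Cyp1a2 by -2.42 (SE 0.75), Cyp3a11 by -4.46 (SE 1.01) and Cyp3a25 by -2.13 (SE 0.41). The Cyp2e1 call alone held with any section left out. Cyp3a11 was at -5.33 without 24 h section A and -3.94 without B (adjusted p = 0.052 and 0.0925, edgeR), and Cyp3a25 at -1.86 without A (adjusted p = 0.0501). Cyp1a2, whose call was lost without any 0 h section, 24 h section B or 48 h section B or D, was at -1.79 without 24 h section B and -3.66 without section A. At 36 h, 2 members were called, against 9.94% of all genes, Cyp2e1 lower (-1.35, SE 0.24, adjusted p = 0.00744, edgeR) and Por higher (2.80, SE 0.47, adjusted p = 0.00993). At 48 h again 2 members were called, against 16.8%, Cyp2e1 lower (-1.68, SE 0.19, adjusted p = 0.00036, edgeR) and Por higher (1.92, SE 0.41, adjusted p = 0.0145). Portal Por stood at 64.5, 68.7 and 44.7 CPM in uninjured sections and at 284, 152, 299 and 162 CPM in those of 48 h, and its 48 h call was lost without 0 h section 2 or 4 (adjusted p = 0.0529 and 0.0562, edgeR). Without 36 h section B the 36 h portal rise of Por was 1.90 (adjusted p = 0.0427, edgeR). Cyp3a13 did not pass at 36 h (1.44, adjusted p = 0.0552, edgeR) or 48 h (1.08, adjusted p = 0.0688), and passed both with DESeq2 (adjusted p = 0.00324 and 0.00732), by total counts (0.0139 and 0.013) and without 48 h section D (0.0274 and 0.0235). The Cyp1a2 fall at 24 h was not called by total counts (adjusted p = 0.0593, edgeR) or by the hepatocyte genes (adjusted p = 0.113).

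Spots with very low hepatocyte signal and their neighbours gave a last position. The score that cut them off was set on the uninjured sections, which held 31, 36 and 13 such spots by that construction, so a low spot does not mark injury by itself. Only 48 h sections A (15) and C (42) among injured ones had enough neighbours to be tested at this cut. The 24 h sections held 0 and 0 low spots and the 36 h sections 0 and 1, fewer than any uninjured section. In 48 h sections B and D there were 1 and 3. The score includes Hp, which stood at 2788 ± 677 CPM at 0 h and 18117 ± 5191 CPM at 24 h. Its part in these counts was not tested. Against spots 3 or more steps away, the touching spots were lower on the TMM scale in 5 of 6 members. Of the 13853 genes tested, 26.6% were called in either direction and 14.7% were called lower. The log2 differences were -1.05 for Cyp3a25 (SE 0.09), -0.86 for Cyp3a13 (SE 0.09), -0.55 for Cyp3a11 (SE 0.08), -0.45 for Por (SE 0.08) and -0.31 for Cyp1a2 (SE 0.08), and Cyp2e1 did not pass (-0.13, adjusted p = 0.228, edgeR). Counted per 1000000 of all UMIs, Cyp2e1 stood at 671 beside and 624 far in section A and at 623 and 547 in section C, so its direction turned with the scaling. Cyp2e1 was called higher beside low spots set at the 5th percentile (0.24, adjusted p = 0.000773, edgeR). At that cut 24 h section A and 48 h sections B and D also had enough neighbours, so cut and sections changed together. By total counts the calls of Cyp1a2 (adjusted p = 0.79, edgeR) and Por (adjusted p = 0.101) were lost. By the hepatocyte genes, Cyp1a2 (0.37), Cyp3a11 (0.14) and Por (0.22) turned higher too. The median of all genes in this comparison was 0.003 with TMM, 0.27 by total counts and 0.65 by the hepatocyte genes. The hepatocyte list fell from 109789 and 101752 per 1000000 far to 78621 and 79964 beside, and the myofibroblast list rose from 510 and 1134 to 1378 and 2802, and their part in these differences was not tested. Within the low spots of sections A and C, Por stood at 302 and 284 per 1000000, against 264 and 295 far. Cyp2e1 stood at 291 and 240 there, against 624 and 547 far. The ratios to Por are therefore those of the tissue.

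The genes around the P450 cycle were read from lists. Of 6 genes that supply electrons by other routes or assist P450s (Cyb5a, Cyb5b, Cyb5r3, Pgrmc1, Fdx1 and Fdxr), 6 were lower at 24 h, 4 at 36 h and 5 at 48 h, with none higher. Cyb5r3, the cytochrome b5 reductase, went from 641 ± 39 CPM at 0 h to 296 ± 33 CPM at 48 h (log2 change -1.11, SE 0.13, adjusted p = 0.000141, edgeR). Cyb5b, the outer mitochondrial cytochrome b5, went from 284 ± 43 to 135 ± 16 CPM (-1.07, SE 0.18, adjusted p = 0.000862). Their list median was -0.88 at 24 h, -0.67 at 36 h and -0.87 at 48 h, beside 0.05, 0.05 and 0.01 over all genes, and Cyb5a is also in the central index list.

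Of 8 haem synthesis genes, 2 were lower at 24 h, 1 at 36 h and 6 at 48 h, and none was higher. Alas1, the first and rate-limiting enzyme, stood at 262 ± 58 CPM at 0 h and 76.4 ± 56.0 CPM at 48 h (log2 change -1.78, SE 0.59, adjusted p = 0.0339, edgeR), and its differences of -1.02 at 24 h and -0.75 at 36 h did not pass (adjusted p = 0.291 and 0.455). Cpox was lower by -0.59 at 48 h (SE 0.17, adjusted p = 0.0178, edgeR). Of 4 haem breakdown genes, Hmox1, the inducible haem oxygenase, was higher at every time, by 2.39, 1.47 and 2.30 at 24 h, 36 h and 48 h, from 11.7 to 14 CPM at 0 h to 47.6 to 83.2 CPM at 48 h. Blvra, biliverdin reductase, was higher at 48 h alone (0.52, SE 0.10, adjusted p = 0.00195, edgeR). The list counts were 2 higher and 1 lower at 24 h, 1 higher at 36 h and 2 higher at 48 h.

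Of 11 regulators of P450 genes, 1 was lower at 24 h, 1 higher and 1 lower at 36 h, and 2 higher and 4 lower at 48 h, when 44.2% of all genes were called. Nr1i3 (CAR, a receptor for foreign compounds) was at 93 ± 10.4 CPM at 0 h and was higher by 0.71 at 36 h (SE 0.20, adjusted p = 0.0231, edgeR) and by 0.48 at 48 h (SE 0.17, adjusted p = 0.0418). Ahr, the receptor that drives Cyp1a genes, was higher at 48 h (0.76, SE 0.22, adjusted p = 0.0177, edgeR), and Cebpa, a hepatocyte factor, was lower (-0.77, SE 0.20, adjusted p = 0.00907). Of 7 other Cyp3a and Cyp1a genes, 2 passed the count filter, Cyp1a1 and Cyp3a59, with 1 lower at 24 h, 0 called at 36 h and 1 higher at 48 h, Cyp1a1 (2.497, SE 0.46, adjusted p = 0.00164, edgeR). Of 6 glutathione supply and conjugation genes, 4 were higher at 24 h, 2 at 36 h and 2 at 48 h, with 1 lower at 48 h. Gstp1, a glutathione transferase, stood at 865 ± 363 CPM at 24 h against 350 ± 68 CPM at 0 h (1.30, SE 0.44, adjusted p = 0.038, edgeR) and at 145 ± 60 CPM at 48 h (-1.27, SE 0.37, adjusted p = 0.02). Gss, glutathione synthetase, was higher by 0.89 at 24 h (SE 0.13, adjusted p = 0.000382, edgeR) and by 0.43 at 48 h.

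In the zonal test, 3 of the 6 electron supply genes were higher centrally at 0 h and 5 were lower centrally at 48 h, and the shift was called lower in 5 of 6. Their summed level had a central to portal ratio of 1.32 ± 0.01 in uninjured sections, 1.05 ± 0.04 in those of 24 h, 0.980 ± 0.020 in those of 36 h and 0.838 ± 0.037 in those of 48 h. Cyb5a of this list is among the central index genes that order the spots, so these counts and ratios are in part set by that ordering. Of the 8 haem synthesis genes, 5 were higher centrally at 0 h and 8 lower centrally at 48 h, with the shift called lower in 7. The regulators shifted lower in 7 of 11 at 48 h, and the glutathione genes shifted higher in 1 and lower in 1 of 6. Of all genes, 8.16% were higher centrally at 0 h, 25.3% lower centrally at 48 h, and 33.3% called in that shift, 13.6% higher and 19.6% lower.

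Markers of other cells changed over the same times. All 4 neutrophil genes were higher at each injured time, and their sum went from 1.98 to 7.86 CPM at 0 h to 29.7 to 105 CPM at 48 h, with S100a9 from 2.4 ± 1.4 to 33.3 ± 17.1 CPM and S100a8 from 2.4 ± 1.5 to 27.5 ± 13.1 CPM. Of 4 myofibroblast genes, 1 was higher at 24 h and 4 at 36 h and 48 h, and their sum went from 37.5 to 45.9 CPM to 484 to 1185 CPM at 48 h, with Col1a1 at 194 ± 97 CPM and Acta2 at 61.0 ± 9.6 CPM. Of 4 mononuclear phagocyte genes, 1, 1 and 3 were higher at 24 h, 36 h and 48 h, and their sum went from 409 to 434 CPM to 722 to 1327 CPM at 48 h, with Cd68 at 104 ± 36 and Lyz2 at 643 ± 222 CPM. Of 7 endothelial genes, Kdr alone was lower at each time, and of 4 cholangiocyte list genes Krt8 was higher at each time (2.29, 1.77 and 1.77), with 1 other lower at 24 h and 36 h. None of 4 globin genes was called at 24 h, 36 h or 48 h, though their sum at 0 h ran from 91.8 to 1607 CPM. Of the 6 hepatocyte genes, 2 were higher and 3 lower at 24 h and at 48 h, and 1 was higher and 1 lower at 36 h, with Hp at 2788 ± 677 CPM at 0 h and 18117 ± 5191 CPM at 24 h, and Ttr lower by -1.15, -0.83 and -0.82. The part of these changes in the levels of the 6 members was not tested.

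The position lists changed over time as well. Of the 21 central index genes, 17, 15 and 16 were lower at 24 h, 36 h and 48 h, with Elovl3 lower by -4.21 and Mup11 by -3.82 at 48 h, and 1 was higher at 48 h. Of the 12 portal index genes, 2 were higher and 7 lower at 24 h, 1 and 6 at 36 h, and 0 and 7 at 48 h, with Serpina12 lower by -2.42 and Mup20 by -1.65 at 48 h. Of 10 textbook central genes, 8, 10 and 6 were lower, with Slc1a2 lower by -5.88 and Glul by -3.75 at 48 h. Of 10 textbook portal genes 4, 2 and 3 were lower and 1 was higher at each time, Apoa4 (3.21 at 48 h), while Cyp2f2 was lower by -1.54. The 5 scaling genes had 3, 1 and 3 members lower and 1, 0 and 1 higher, with Apoa1 lower by -0.78 at 48 h. The fall of Cyp2e1 at 48 h (-2.19) lay beyond the central index list's median of -1.01, a comparison with no test.

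Some genes followed the members across the 55 bands (11 sections by 5). Among 7054 genes with a mean of at least 10 CPM outside the index lists, Aldh3a2 was most like Cyp2e1 (Pearson r = 0.962 of log2 CPM plus 1), then Oat (0.932) and Cyp2c37 (0.929). Notum (0.940), Gstm3 (0.920) and Gulo (0.870) were most like Cyp1a2, and Ugt2b1 (0.935), Ugp2 (0.933) and Ces2a (0.930) most like Cyp3a11. Nrbp2 (0.941), Gtf2a2 (0.861) and Ddit4 (0.825) were most like Cyp3a13, and Mettl7a1 (0.939), Gpld1 (0.921) and Afmid (0.920) most like Cyp3a25. The closest to Por, Tango2 (0.831), Anapc5 (0.808) and Plscr3 (0.796), were less like it than the closest were to Cyp2e1. Bands of a section share a library and its depth, so these values are descriptions without a p.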

How the data were processed

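The deposited matrices held raw UMI counts per gene and spot barcode (31053 genes, 4992 barcodes per section), which the authors made with Space Ranger 1.0.0 on mm10, and the submitters' processing notes also name Seurat 4.1.1. From these counts, spots under the authors' tissue mask were kept if they held at least 800 genes and no more than 20% mitochondrial UMIs, and counts were summed per section, per position band (5 per section) or per ring around hepatocyte-low spots. The study's manual removal of spots was not repeated. Sections were grouped by the time point in the labels.

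Sums were tested with edgeR 4.0.16 in R 4.3.3 (filterByExpr, TMM, robust quasi-likelihood fit over all sections, two-sided, Benjamini-Hochberg over all genes tested, threshold 0.05). The zonal and ring fits carried the section as a term. CPM is UMIs per 1000000 of the TMM-scaled total. The steps were tested on simulated counts. The position index used spots thinned to 2000 UMIs and ln(1 + UMIs per 10000). A hepatocyte-low spot had a hepatocyte score under the mean of the 1 percent points of the uninjured sections. Hepatocyte-low neighbours were tested in sections with at least 20 touching spots, with 1 residual degree of freedom in the main fit. Its p therefore rests on a spread shared across genes.

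The index lists were drawn by the study on these data, and its central list also held Cyp2e1 and Cyp3a11, which were removed. The members, lists and tests were chosen with earlier results of these data known. All 6 members are described in every comparison, and of each list up to 2 genes with the largest difference at 48 h among those called with a mean of at least 10 CPM are named, besides Alas1, Nr1i3, Hmox1, Dbp and Nr1d1. Cyp1a1 and Cyp3a59 were named after their values were seen. Alternatives were total-count and hepatocyte-gene scaling, no filter, DESeq2 1.42.0, other indices, 3 bands, fits on the groups compared and each section left out. UMI ratios to Por and shares of the P450 sum are uncorrected for gene length and capture, so they are compared over time and position. The images were not used here.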

Additional observations from a re-analysis of the deposited data

Results flagged for a closer look

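Cyp3a11 stood apart in 48 h section D, at 1361 CPM in the whole section and 1485 CPM in its central band, each far above the other 48 h sections. Of 24 such checks in groups of 4 sections these 2 stood out, where chance picks about 1 in 20. The 2 are not independent, because the central band is part of the same section.

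The central to portal difference changed from uninjured liver in a test of the difference itself (edgeR, log2) for the following genes. At 48 h, Cyp2e1 shifted by -0.84, Cyp1a2 by -1.49 and Cyp3a11 by -1.33. At 48 h, Cyp3a13 shifted by -0.68, Cyp3a25 by -1.03 and Por by -1.29. At 36 h, Cyp1a2 shifted by -1.06, Cyp3a25 by -0.64 and Por by -1.23. At 24 h, Por shifted by -0.53. Each was lower in the test, and the sections that some of these calls rest on are named with them above.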

How the results depend on the processing

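Of 990 values with a section left out, 893 kept direction and call, 61 lost the call, 19 gained it and 17 turned. Of 762 values under other settings these numbers were 665, 40, 33 and 24. Members called, with each section left out in turn, ran from 2 to 5 at 24 h and at 36 h against 0 h, 1 to 3 for 36 h against 24 h, 1 to 5 for the zones at 36 h, 1 to 2 for the zonal shift at 24 h, 2 to 4 in the portal band at 24 h and 1 to 3 there at 48 h. Values that turned with a section left out ran, for 36 h against 24 h, from -0.86 to 1.88 for Cyp1a2 and -0.23 to 1.69 for Cyp3a11. For Cyp3a13 they ran from -0.094 to 0.99 at 24 h, -0.22 to 1.17 in the portal band at 24 h, -0.45 to 0.19 between zones at 24 h and -0.25 to 0.39 in the zonal shift at 24 h. For Cyp3a25 they ran from -0.56 to 0.50 at 36 h, -0.39 to 0.058 at 48 h, -0.67 to 0.40 for 48 h against 36 h, -0.22 to 0.89 in the portal band at 36 h, -0.45 to 0.065 between zones at 24 h and -0.47 to 0.047 in its shift. They ran from -0.12 to 0.67 for the Cyp3a11 shift at 24 h and from -0.0078 to 0.55 for Por at 24 h. The cause was not tested.

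Scaled by the hepatocyte genes, 3 members were called at 36 h, and the zonal differences turned to 0.33 for Cyp3a13 at 0 h, 0.54 and 0.49 for Cyp3a13 and Cyp3a25 at 24 h, 0.21 for Por at 36 h, and 0.42 and 0.32 for Cyp3a11 and Por at 48 h. The zonal medians of all genes on that scale were 0.53, 0.67, 0.48 and 0.64 at 0 h, 24 h, 36 h and 48 h. Cyp3a25 at 48 h turned to 0.27, and beside hepatocyte-low spots 3 members were called, with Cyp2e1 at 0.55, Cyp1a2 at 0.37, Cyp3a11 at 0.14 and Por at 0.22. By total counts, 3 members were called beside those spots with Cyp2e1 at 0.15, Cyp3a25 at 48 h turned to 0.37, and the zonal differences to 0.12 and 0.075 for Cyp3a13 and Cyp3a25 at 24 h and 0.10 and 0.0034 for Cyp3a11 and Por at 48 h. With low spots cut at the 5th percentile, Cyp2e1 was at 0.24 and called higher, and Cyp1a2 was at 0.022 and not called. At that cut 24 h section A and 48 h sections B and D also had enough neighbours. With the textbook index, Cyp3a11 was at -0.078 between zones at 36 h and -0.13 in the 24 h shift, and 2 and 6 members were called in the shifts at 24 h and 36 h. By portal genes alone, 5 were called in the 36 h shift, with Cyp3a11 at -0.24 at 36 h and Cyp1a2 at -0.20 at 48 h. With 3 bands, Cyp3a25 was at -0.0091 at 0 h. With no filter 3 members were called at 36 h and 3 and 6 in the shifts at 24 h and 36 h, with the index on all UMIs 0 in the 24 h shift, and with DESeq2 4 in the portal band at 36 h. No section could be left out of the test beside hepatocyte-low spots.

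Same-letter deviations of the sections correlated at 0.46 between 24 h and 36 h, over 7093 genes. With 48 h they correlated at -0.23 for 24 h and -0.15 for 36 h. Letters thus paired no time with 48 h, while sections A and B differed in part alike at 24 h and 36 h. The labels do not say whether sections of the same letter share a mouse, slide or run, and the cause was not tested. With a replicate block 0 members were called in either step between injured times, with 82 and 0 genes in all. The same sections without the block, an alternative chosen after seeing the data, gave 0 members and 118 and 0 genes, and the fit on the 2 groups alone 0 members and 1 gene. Counts over all genes also moved by over 1.5 times, for 36 h against 0 h to 7506 from 4329 by total counts, for zones at 0 h to 9434 from 2236 and at 48 h to 11401 from 6587 by the hepatocyte genes, and beside hepatocyte-low spots to 1599 from 3682 with DESeq2.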
